A study of Mus musculus with 8 samples.

Results

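Adrenergic and cholinergic signalling was followed through 9 genes. Ache and Bche encode cholinesterases, Chrm2, Adrb1, Adra1a and Adra1b encode receptors, Adcy5 and Adcy6 encode adenylyl cyclases, and Grk5 encodes a receptor kinase. They are 9 of the 53465 genes in the expression table, and each was found by its Ensembl identifier. The group was chosen on Ache, whose lower level in 1 of the genotypes was already known, so the comparison of the genotypes is given for the 9 genes as a description and not as a test.

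RNA was sequenced from the ventricles of mouse embryos at embryonic day 15.5, with 4 libraries labelled WT and 4 labelled Nrg-1flox;Cdh5-CreERT2. The latter genotype joins a floxed allele of Nrg1, the gene of neuregulin-1, to a tamoxifen-inducible Cre driven by the promoter of the endothelial gene Cdh5. By the labels, each library came from 1 ventricle. Strain, the timing of tamoxifen, and whether WT embryos received it or carried Cre or floxed alleles are not given in the sources used here.

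Autonomic nerves set the rate and force of the heart through opposed transmitters. Noradrenaline acts on beta-1 adrenoceptors, which stimulate adenylyl cyclase through Gs, and on alpha-1 adrenoceptors, which act through Gq and phospholipase C. Acetylcholine acts on M2 muscarinic receptors, which inhibit adenylyl cyclase through Gi and open the potassium channel formed by the products of Kcnj3 and Kcnj5, and cholinesterases end this signal by splitting acetylcholine.

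Library totals lay between 16761763 and 24144272 expected counts, and 81 of 15388 genes tested with edgeR differed between the genotypes at a false discovery rate (FDR) below 0.05. The deleted gene itself, Nrg1, had no lower level where the label names its deletion, at 4.87 ± 0.636 CPM (counts scaled to a common library size) in WT against 6.17 ± 0.611 CPM in the others (SD, n = 4 each), with a log2 fold change of 0.34 (edgeR adjusted p = 0.311). This goes against the label, although a count over the whole gene need not follow the loss of some of its exons or a loss in 1 cell type. They are called labelled-mutant libraries here, and every direction given is that of the label. In 7 of the 8 libraries both Xist, a transcript of female cells (103 to 327 CPM), and Y-linked transcripts (42.9 to 122 CPM, summed over 4 genes) were present, whereas WT library 4 had Xist at 0.176 CPM. Transcripts of both sexes in 7 libraries go against the label of 1 ventricle per library, and the cause was not tested. Cardiomyocyte markers were high in every library, with 7 genes summing to between 30890 and 34825 CPM. Of these, 2 were lower and 5 higher in labelled-mutant libraries. Only Nkx2-5 was called (log2 fold change 0.21, edgeR adjusted p = 0.0194), and Myh6 was at -0.19 (adjusted p = 0.134).

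Of the 9 genes, 8 passed the filter on low counts, and Adra1a did not. At an FDR below 0.05, 1 of the 8 was called and it was lower, where 0.526% of all tested genes were called in either direction and 0.214% were called lower. Since Ache was chosen on this contrast, nothing is read from that count. WT and labelled-mutant values did not overlap for Ache and Bche, 2 of 8 genes, against 6.05% of all tested genes. At an unadjusted p below 0.05 there were 3 lower and 1 higher, against 10.5% of all tested genes in either direction. Ache is in both of these counts, so nothing is read from them either. In direction, 4 were lower and 4 higher, with a median log2 fold change of -0.01, beside -0.0012 over all tested genes.

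**Figure D1:**
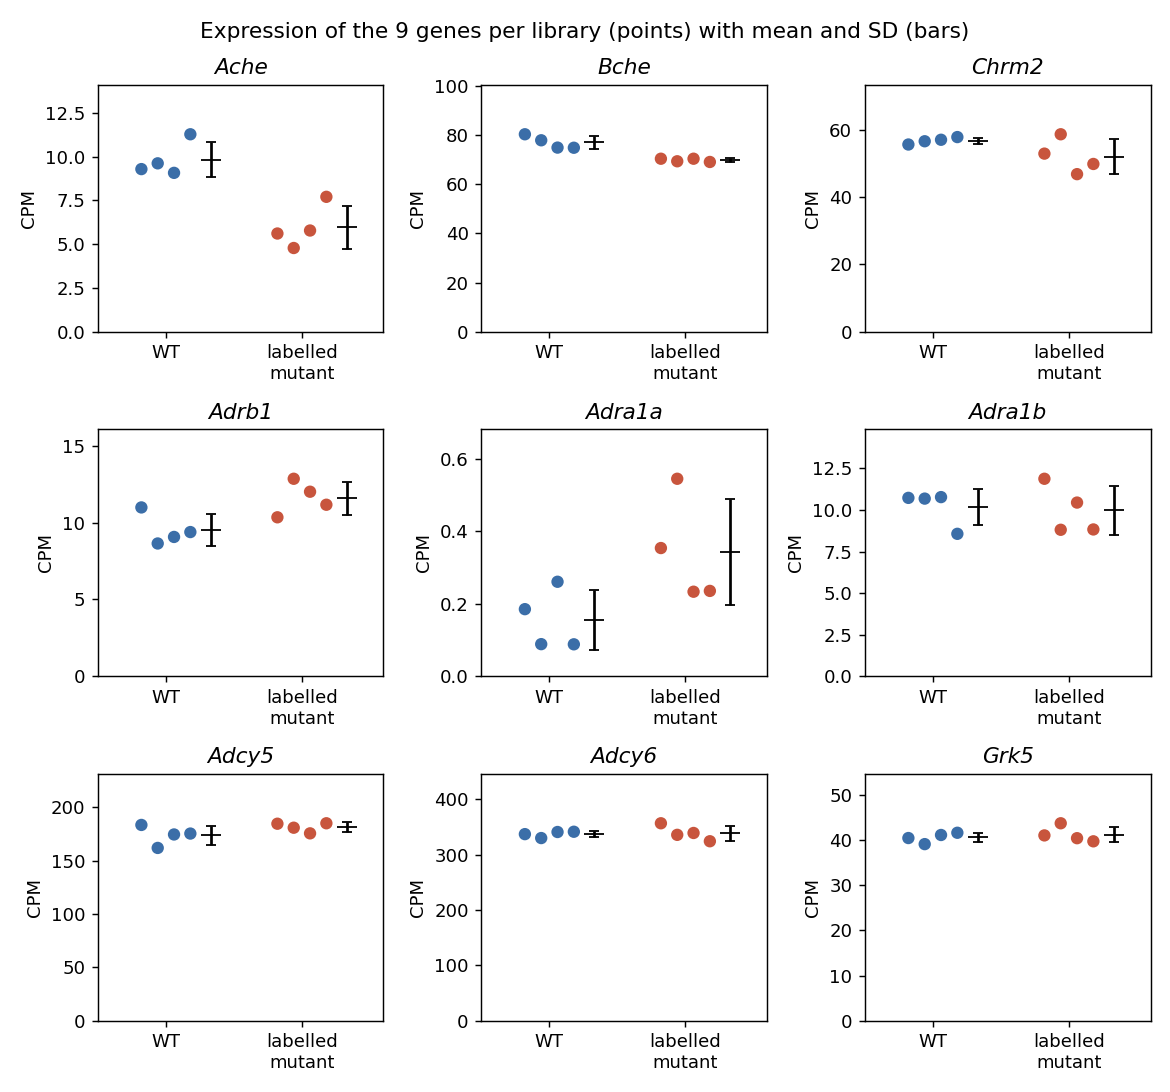
Expression of the 9 genes in CPM, on linear axes that start at 0, with each point 1 library (4 WT, 4 labelled mutant, replicates 1 to 4 from left to right) and bars for the mean and SD of each group. The labelled-mutant points lie below every WT point for Ache (4.78 to 7.71 against 9.08 to 11.29 CPM) and for Bche, and overlap with WT for the other 7 genes.

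Ache (ENSMUSG00000023328, GRCm38 chromosome 5, 137287519 to 137294466, plus strand) encodes acetylcholinesterase, the enzyme that splits acetylcholine at nerve endings. It stood at 9.30, 9.63, 9.08 and 11.29 CPM in WT libraries 1 to 4, and at 5.61, 4.78, 5.78 and 7.71 CPM in the labelled mutant 1 to 4. Library 4 was the highest within each genotype, and the highest labelled-mutant value was still below the lowest WT value. The means were 9.82 ± 1.00 and 5.97 ± 1.24 CPM (SD, n = 4 each). The fitted log2 fold change came to -0.73 (SE 0.132, 95% confidence interval -1.02 to -0.45), so the level decreased by 39.8%. The value that chose Ache was its adjusted p = 0.0373 in edgeR's fit over all genes. In bulk tissue, fewer cells that express a gene and less of its RNA per cell cannot be told apart.

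The Ache values rested on 111 to 257 expected counts per library. The coefficient of variation was 10.2% in WT and 20.7% in labelled-mutant libraries, and counting alone would give 6.72% and 9.13%. An antisense lincRNA gene, Gm42456, shares 98 exonic bases with Ache and had 0 counts in every library. Without labelled-mutant library 4 the log2 fold change was -0.87 (edgeR adjusted p = 0.00613). Leaving out any of the other 7 libraries kept the direction, with log2 fold changes of -0.77 to -0.63 and adjusted p between 0.0646 and 0.126, so the call was lost when any 1 of these 7 was left out.

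Bche (ENSMUSG00000027792, chromosome 3, 73635808 to 73708415, minus strand) encodes butyrylcholinesterase, which splits a wider range of choline esters. WT libraries held 80.38, 77.94, 74.95 and 74.89 CPM, and labelled-mutant libraries held 70.42, 69.38, 70.42 and 69.10 CPM. Every labelled-mutant value lay below every WT value, and the labelled-mutant values were close together, with means of 77.0 ± 2.64 and 69.8 ± 0.692 CPM (SD, n = 4 each). The fitted log2 fold change stood at -0.14 (SE 0.0317, 95% confidence interval -0.21 to -0.07), much nearer to 0 than that of Ache.

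The balance between the enzymes was compared per length, as CPM per kilobase of exonic sequence. Ache was at 0.186 ± 0.0228 of the Bche level in WT and at 0.125 ± 0.0266 of it in labelled-mutant libraries (SD, n = 4 each). The ratio ran from 0.169 to 0.220 in WT and from 0.101 to 0.163 in labelled-mutant libraries, so the ranges were apart, and Bche was the more abundant transcript in every library.

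The sequence before the start of these genes is shown because they are the members whose genotypes did not overlap. RefSeq start regions on GRCm38.p6, each 300 bases long, were matched for 7 of the 9 genes. The stretches printed end at the base before the RefSeq start and hold no exon annotated in GENCODE. Capitals mark the GC box GGGCGG, also searched on the other strand as CCGCCC, and neighbouring matches can share bases. The Ache stretch is chr5:137288058-137288253 on the plus strand, which lies inside the annotated gene and between its exons, because the gene has an earlier annotated start. The Bche stretch is chr3:73708416-73708665 on the minus strand, directly before the gene.
Ache: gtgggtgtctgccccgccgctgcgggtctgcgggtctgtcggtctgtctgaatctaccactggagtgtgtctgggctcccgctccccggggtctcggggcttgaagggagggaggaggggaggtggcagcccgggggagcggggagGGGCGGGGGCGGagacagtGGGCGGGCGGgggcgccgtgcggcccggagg
Bche: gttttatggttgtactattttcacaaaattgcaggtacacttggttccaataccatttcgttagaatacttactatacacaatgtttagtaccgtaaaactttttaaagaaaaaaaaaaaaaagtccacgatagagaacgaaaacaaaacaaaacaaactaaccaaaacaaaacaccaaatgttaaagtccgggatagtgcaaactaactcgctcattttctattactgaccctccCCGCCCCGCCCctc
The Ache stretch had 4 matches and was 75.5% G and C, and the Bche stretch had 2 matches, both next to the start, and was 35.6% G and C. Their whole start regions were at percentiles 95.2 and 8.92 of G and C content among 32851 such regions. A GC box was found in 35.7% of all start regions, and among the other matched genes Adcy5 had 4 matches, Chrm2 and Adrb1 had 1 each, Grk5 had 0, and the starts of Adra1b had 0 and 2. The cyclic AMP response element TGACGTCA (in 1.79% of all start regions) and the TATA box TATAAA, with TTTATA for the other strand (in 13.6%), were not in these windows of the matched genes. The matches describe letters and not bound sites.

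Chrm2 (ENSMUSG00000045613, chromosome 6, 36388084 to 36528414, plus strand) encodes the M2 muscarinic receptor, the main acetylcholine receptor of heart muscle. It was at 55.64, 56.61, 57.05 and 57.85 CPM in WT and at 52.93, 58.69, 46.82 and 49.85 CPM in the labelled mutant. WT values were close together, while labelled-mutant library 2 was the highest of all 8 libraries and the other 3 of its genotype were below all WT libraries. The means were 56.8 ± 0.922 and 52.1 ± 5.06 CPM (SD, n = 4 each), with a log2 fold change of -0.12 (SE 0.0562, 95% confidence interval -0.24 to -0.00051). The fitted log2 fold change stood at -0.19 without labelled-mutant library 2 and -0.07 without labelled-mutant library 3. The antisense lincRNA gene 9330158H04Rik shares 142 exonic bases with Chrm2, and none of the Chrm2 counts was a whole number.

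Adrb1 (ENSMUSG00000035283, chromosome 19, 56722199 to 56733113, plus strand) encodes the beta-1 adrenoceptor, through which noradrenaline raises heart rate and force. WT libraries held 11.01, 8.65, 9.08 and 9.40 CPM, and labelled-mutant libraries held 10.36, 12.88, 12.03 and 11.18 CPM. Labelled-mutant values lay above WT apart from WT library 1, which was above labelled-mutant library 1. The means were 9.54 ± 1.03 and 11.6 ± 1.08 CPM (SD, n = 4 each), with a log2 fold change of 0.29 (SE 0.0953, 95% confidence interval 0.08 to 0.50). It remained above 0 in all leave-one-out fits, from 0.24 to 0.36. Per kilobase, the level of Chrm2 was 3.36 ± 0.366 times that of Adrb1 in WT and 2.52 ± 0.278 times in labelled-mutant libraries (SD, n = 4 each), with ranges of 2.82 to 3.65 and 2.17 to 2.85 that met at WT library 1 and labelled-mutant library 1.

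The alpha-1 adrenoceptor genes were very unequal. Adra1b (ENSMUSG00000050541, chromosome 11, 43774606 to 43901210, minus strand), which encodes the alpha-1B receptor, was at 10.73, 10.69, 10.78 and 8.57 CPM in WT and at 11.88, 8.81, 10.45 and 8.83 CPM in the labelled mutant. The genotypes overlapped fully, and WT library 4 stood below the other WT libraries. The log2 fold change of Adra1b was -0.03 (SE 0.112, 95% confidence interval -0.27 to 0.21). Adra1a (ENSMUSG00000045875, chromosome 14, 66635251 to 66771168, plus strand), which encodes the alpha-1A receptor, had 4, 2, 6 and 2 counts in WT and 7, 13, 5 and 4 counts in labelled-mutant libraries. These means of 0.156 ± 0.0837 and 0.342 ± 0.147 CPM (SD, n = 4 each) were too low to pass the filter, and no difference could be resolved at this depth (log2 fold change 1.13, SE 0.599, in a fit without the filter).

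Adcy5 and Adcy6 encode the adenylyl cyclases that are most abundant in heart muscle and that Gi inhibits. Adcy5 (ENSMUSG00000022840, chromosome 16, 35154877 to 35305738, plus strand) was at 183.48, 161.92, 174.54 and 175.40 CPM in WT and at 184.62, 180.88, 175.59 and 185.05 CPM in the labelled mutant. WT library 2 was the lowest and the genotypes overlapped, with a log2 fold change of 0.06 (SE 0.0394, 95% confidence interval -0.02 to 0.15). Adcy6 (ENSMUSG00000022994, chromosome 15, 98589973 to 98610076, minus strand) was at 337.17, 330.06, 341.01 and 341.48 CPM in WT and at 356.81, 335.88, 339.25 and 324.30 CPM in the labelled mutant. Labelled-mutant libraries held both the highest and the lowest value of Adcy6, and the log2 fold change came to 0.01 (SE 0.0339, 95% confidence interval -0.07 to 0.08). All the exonic bases of the antisense gene Gm29331, 605 in number, lie within exons of Adcy6. Expected counts of Adcy6 and Gm29331 were 7289.93 and 250.07 in WT library 1, and 7475.25 and 295.75 in WT library 2. In each of these libraries the fractions complete each other to a whole number, so reads were divided between these genes of opposite strands. The Adcy6 level therefore depends on that division. Per kilobase, Adcy5 was at 0.486 ± 0.0208 of the level of Adcy6 in WT and at 0.506 ± 0.0237 in labelled-mutant libraries (SD, n = 4 each).

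Grk5 (ENSMUSG00000003228, chromosome 19, 60889749 to 61095968, plus strand) encodes a kinase that phosphorylates active receptors, beta-1 adrenoceptors included, and so damps their signal. It was at 40.52, 39.17, 41.19 and 41.69 CPM in WT and at 41.10, 43.79, 40.48 and 39.79 CPM in the labelled mutant. The genotypes overlapped, at 40.6 ± 1.09 and 41.3 ± 1.75 CPM (SD, n = 4 each), and the log2 fold change was 0.03 (SE 0.0404, with -0.06 to 0.11 as its 95% confidence interval).

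Levels of the genes were compared with each other as CPM per kilobase of exonic length, over all 8 libraries. Adcy6 was highest at 49.9 ± 1.40 CPM per kilobase (SD, n = 8), followed by Adcy5 at 24.7 ± 1.07, Bche at 10.9 ± 0.630, Chrm2 at 8.99 ± 0.695 and Grk5 at 5.81 ± 0.198 CPM per kilobase. Adrb1 (3.13 ± 0.438) and Adra1b (2.98 ± 0.356 CPM per kilobase) were not separated, since Adrb1 was above Adra1b in 5 of 8 libraries and their ranges overlapped. Ache followed at 1.71 ± 0.499 CPM per kilobase and Adra1a was last at 0.0285. All other neighbours in this order had ranges over the 8 libraries that did not meet. Among all tested genes, Adcy6 was at percentile 94.2 of level per kilobase and Adcy5 at 87.8, whereas Adrb1 was at 40.8 and Ache at 29.3.

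**Figure D2:**
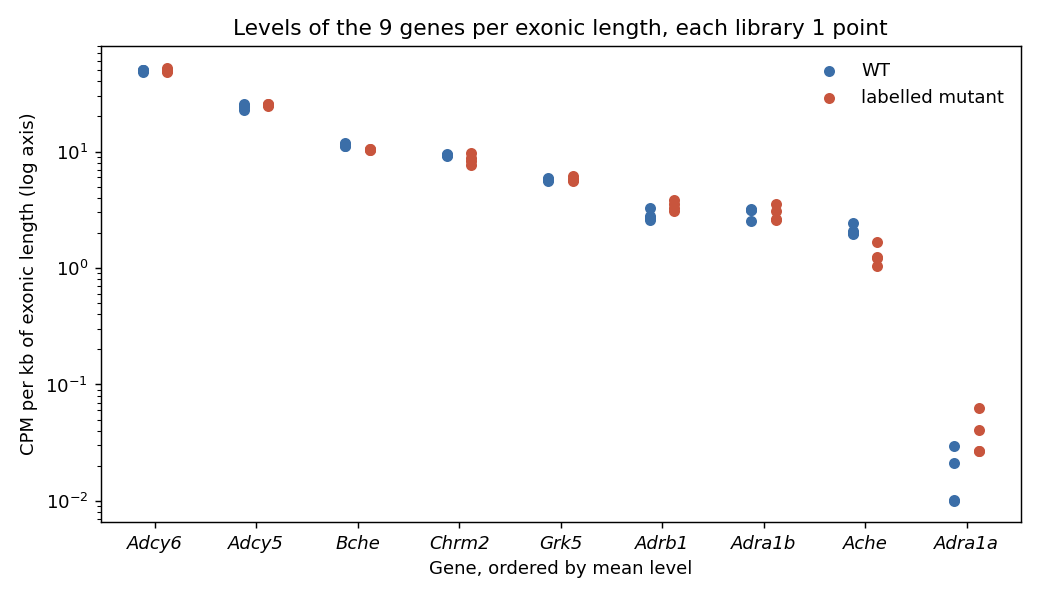
Level of each of the 9 genes in CPM per kilobase of exonic length on a log axis, with genes ordered by mean level and each point 1 library (4 WT, 4 labelled mutant). The cyclases lie at the top (Adcy6 at 49.9 CPM per kilobase on average), the other genes but Adra1a lie between 1.03 and 11.9, and Adra1a lies far below at 0.0285, with Ache the gene whose genotypes stand furthest apart among the 8 that passed the filter.

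The members did not move as a block from library to library. After subtraction of each genotype's mean, log2 CPM of Chrm2 and Grk5 had a Pearson r of 0.78 over the 8 libraries, the highest of any pair of members. Labelled-mutant library 2 was the highest of all 8 libraries for both genes, at 58.69 and 43.79 CPM. Ache and Bche had a group-centred r of -0.28, and Ache and Chrm2 of -0.49. These are descriptions over 8 libraries that share tissue and depth, and no p is given.

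Ache followed some measures across libraries and ran against others, and these are given beside it. Its r with the summed level of 4 Y-linked genes (log2 CPM) was 0.84 over the 8 libraries (Spearman 0.76), and 0.82 after centring on each genotype. Library 4 of each genotype had both the highest Ache and the highest Y-linked sum, at 171 CPM in WT against 120 CPM in the labelled mutant, and without these the r was 0.30 over 6 libraries. The Y-linked sum was 69.3 to 171 CPM in WT against 42.9 to 120 CPM in the labelled mutant. With that sum as a covariate, the log2 fold change of Ache was -0.51 (SE 0.126, edgeR adjusted p = 0.206). Other genes ran against Ache within genotypes, with a group-centred r of -0.95 for Pln and Myl2, -0.92 for Adcy9 and -0.90 for Tnnt2. For the other cardiomyocyte markers r was -0.66 (Actn2), -0.59 (Ryr2), -0.48 (Myh7), -0.42 (Myh6) and 0.17 (Nkx2-5). The cause was not tested.

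Some trabecular and conduction markers, genes of the inner wall and of the conducting cells, moved with Ache as well. Slit2, a guidance ligand, was at 138.61, 138.83, 126.40 and 152.47 CPM in WT and at 86.95, 72.86, 89.27 and 128.01 CPM in the labelled mutant. Its r with Ache was 0.98, 0.97 after centring on genotype and 0.96 without both libraries 4, so the libraries with most Slit2 were those with most Ache. For Hcn4, a pacemaker channel gene, r was 0.96, then 0.88 and 0.52, and for Bmp10, a trabecular growth factor gene, it was 0.92, then 0.76 and 0.03. All 7 markers of this list were lower in labelled-mutant libraries (median log2 fold change -0.29), with Etv1 past the test (log2 fold change -0.32, edgeR adjusted p = 0.0373), and their summed level ran from 2006 to 2922 CPM in WT against from 1820 to 2638 CPM in the labelled mutant. Most of that sum was Nppa, at 1992 and 1766 CPM on average. After centring on genotype, the r with Ache was 0.79 for Gja5 and 0.74 for Nppa. It was 0.21 for Irx3 and -0.02 for Etv1, which did not follow Ache within genotypes. Whether a shift in trabecular or conducting cells has a part in the Ache result was not tested.

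**Figure D3:**
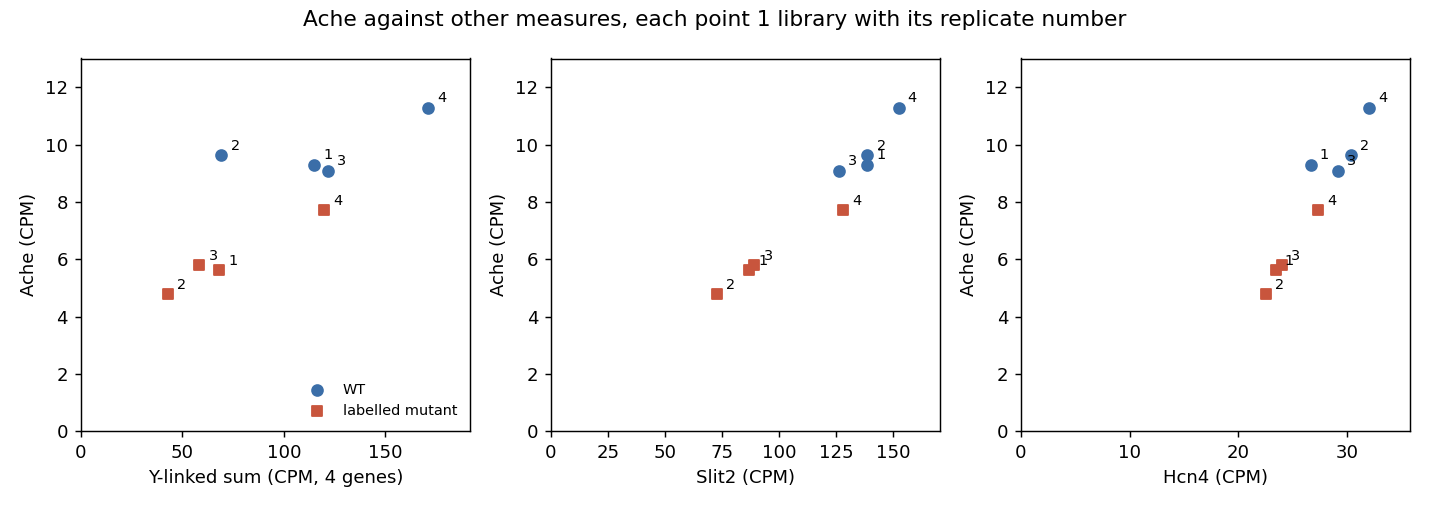
Ache (CPM) against the summed level of 4 Y-linked genes, Slit2 and Hcn4 (CPM, linear axes from 0), with each point 1 library marked with its replicate number (4 WT, 4 labelled mutant). Library 4 has the highest Ache in each genotype (11.29 and 7.71 CPM) and also the highest value on each x axis within its genotype, and the 3 other labelled-mutant libraries are lowest for Ache in every panel.

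Markers of cells in which acetylcholinesterase is well known were also read. The 8 neuron markers summed to 5.39 to 7.39 CPM in WT against 5.13 to 7.00 CPM in the labelled mutant. Of 4 tested, 3 were lower, 1 higher and 0 called (median log2 fold change -0.35). Isl1, with 8 to 28 counts, was at -0.94 (edgeR adjusted p = 0.241) and Stmn2, with 16 to 43 counts, at -0.63 (adjusted p = 0.431). Tubb3 was at -0.07 and Elavl4 at 0.06. Erythroid markers, for 9 of 10 genes found, summed to 4269 to 9379 CPM in WT against 5849 to 9976 CPM in the labelled mutant, and 7 of the 8 tested were higher with 0 called. The 6 skeletal muscle markers summed to 5.41 to 9.14 CPM in WT against 6.77 to 7.89 CPM in the labelled mutant, with 4 tested (2 lower, 2 higher, 0 called). Most of this sum was Myh8, a skeletal muscle myosin gene, at 4.14 and 4.73 CPM on average, while Myod1 and Myf5 were at 0 in every library. Endothelial markers summed to 1042 to 1070 CPM in WT against 973 to 1040 CPM in the labelled mutant, ranges that did not meet, with 5 of 7 lower and 0 called. The part of these cells in the Ache result was not tested.

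By a fixed rule, the 5 genes most like Ache were those with the highest group-centred r of log2 CPM over the 8 libraries. They were Slc7a4 (0.99), Ptpn14 (0.98), Tbc1d14 (0.98), Slit2 (0.97) and Phf1 (0.97). Of these, Slit2 alone also differed in level between the genotypes by more than 0.1 on the log2 scale (-0.57, edgeR adjusted p = 0.072), and the other 4 had log2 fold changes between -0.02 and 0.06. High values are expected among so many genes and 8 points.

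The rest of the pathway was listed by role, 103 genes of which 75 passed the filter. At an FDR below 0.05, 1 of the 75 was lower and 0 were higher, and at an unadjusted p below 0.05 there were 8 lower and 2 higher, 13.3% of the genes beside 10.5% of all tested genes. In direction, 47 were lower and 28 higher, with a median log2 fold change of -0.02. The genotypes did not overlap for 4 (Kcnj3, Gnas, Pde8a and Plcb4), or 5.33%, beside 6.05% of all tested genes. DESeq2 likewise called 1 lower and 0 higher.

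**Figure D4:**
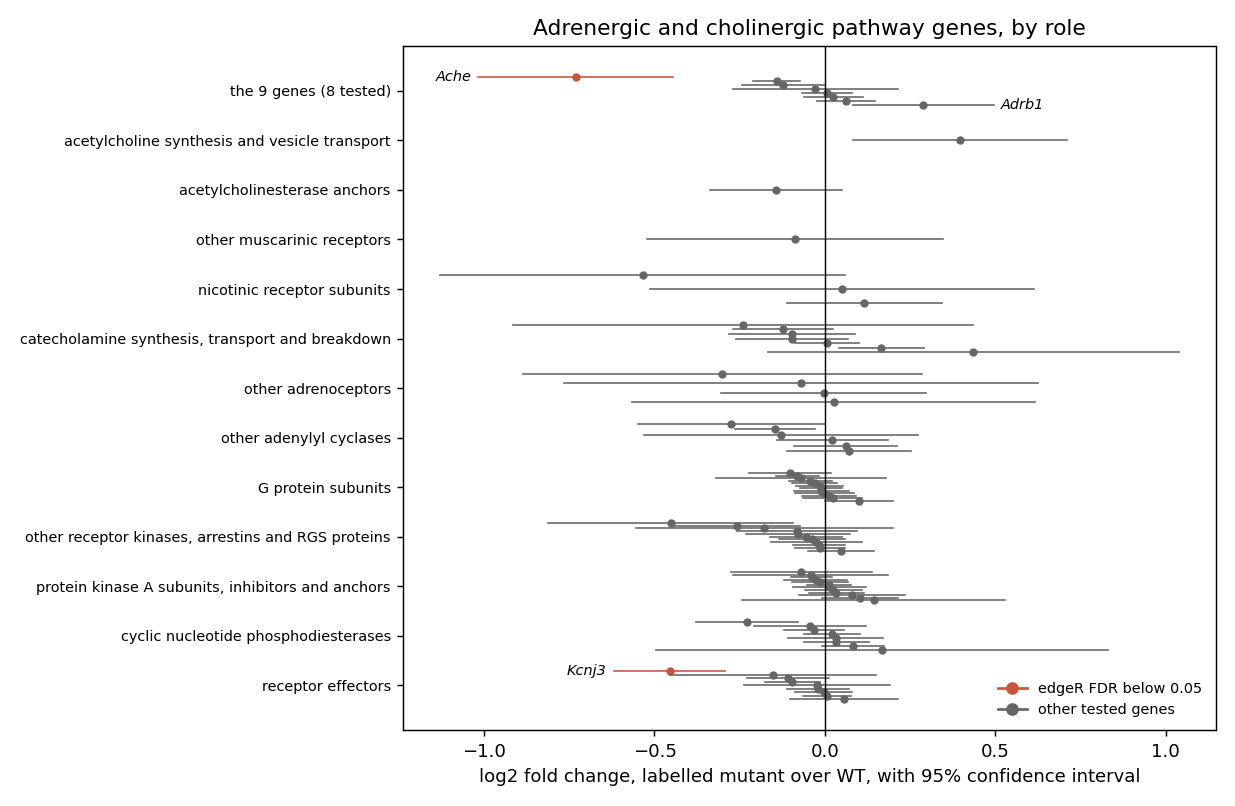
Log2 fold change of labelled mutant over WT (x axis, with 95% confidence intervals) for the tested genes, in rows by role, with the 8 tested members on top and 75 other pathway genes under them. Red marks the genes with an edgeR FDR below 0.05, which are Ache (-0.73) and Kcnj3 (-0.46), and most other genes lie close to 0.

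Kcnj3 fell. It encodes GIRK1, a subunit of the potassium channel that M2 receptors open, and stood at 17.90, 18.19, 17.99 and 17.48 CPM in WT and at 14.41, 14.09, 11.99 and 11.54 CPM in the labelled mutant. The genotypes were apart, at 17.9 ± 0.299 and 13.01 ± 1.46 CPM (SD, n = 4 each), and the log2 fold change came to -0.46 (SE 0.0758, 95% confidence interval -0.62 to -0.29, edgeR adjusted p = 0.0261). Kcnj5, which encodes GIRK4, the partner subunit, was named after its values were seen. It was at 82.3 ± 2.44 and 82.0 ± 4.12 CPM (SD, n = 4 each), with a 95% confidence interval of -0.09 to 0.08. The lincRNA Gm26794 on the other strand shares 31.1% of the exonic bases of Kcnj3, and had a log2 fold change of 0.31 (adjusted p = 0.845). The Kcnj3 call was lost without any 1 of 5 libraries (each WT library and labelled-mutant library 3), with log2 fold changes of -0.47 to -0.42 and adjusted p of 0.0585 to 0.111. It was also lost when the Y-linked sum was a covariate, where the log2 fold change was -0.54 (adjusted p = 0.0607). Within genotypes Kcnj3 did not follow Ache, with a group-centred r of -0.74. Kcnj3 is known for high expression in atrial muscle, and 5 of 5 atrial markers were lower with 0 called (median log2 fold change -0.20), among them Sln (-0.41, adjusted p = 0.649) and Dkk3 (-0.24, adjusted p = 0.335). Their summed level, 1354 to 1556 CPM in WT against 1378 to 1475 CPM in the labelled mutant, overlapped. Most of it was Myl4, at 1323 and 1311 CPM on average (log2 fold change -0.01). Dkk3 also followed Ache, with an r of 0.85 and 0.82 after centring on genotype. The part of atrial cells in either result was not tested.

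Genes of the nerve supply were at or near the floor. Chat, which makes acetylcholine, had 0 counts in all 8 libraries, and Slc18a3, the vesicular acetylcholine transporter gene, had 1 to 3 counts. Th, which encodes the enzyme that begins catecholamine synthesis, had 0, 0, 1 and 4 counts in WT and 0, 12, 0 and 1 counts in labelled-mutant libraries. Prima1, which anchors acetylcholinesterase to membranes, had 1 to 13 counts. None of these passed the filter. Slc5a7, the choline transporter gene, did, at 3.24 ± 0.605 CPM in WT against 4.27 ± 0.248 CPM in the labelled mutant (SD, n = 4 each, log2 fold change 0.40, edgeR adjusted p = 0.336). Dbh, whose enzyme makes noradrenaline, was at 0.687 ± 0.0791 and 0.925 ± 0.287 CPM (SD, n = 4 each, log2 fold change 0.43, adjusted p = 0.635), and without labelled-mutant library 2 its log2 fold change was 0.26.

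Colq, whose product tethers acetylcholinesterase to the matrix, was at 12.6 ± 1.47 CPM in WT against 11.4 ± 0.749 CPM in the labelled mutant (SD, n = 4 each, log2 fold change -0.14, edgeR adjusted p = 0.628), and without WT library 1 its log2 fold change was -0.06. Ddc, which encodes the decarboxylase of dopamine synthesis, was the most abundant catecholamine gene per kilobase, at 195 ± 13.4 and 218 ± 16.7 CPM (SD, n = 4 each, log2 fold change 0.17, adjusted p = 0.311). Of the 7 catecholamine genes tested, 4 were lower, 3 higher and 0 called.

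Few other receptors for these transmitters were measurable. Of 4 further muscarinic receptor genes 1 was tested (Chrm3, log2 fold change -0.09, edgeR adjusted p = 0.933), and of 16 nicotinic subunit genes 3 were tested. Chrnb1 had a log2 fold change of 0.12 (adjusted p = 0.773) and Chrng, the embryonic muscle subunit gene, one of -0.53 (adjusted p = 0.540). Of 6 other adrenoceptor genes 4 were tested, among them Adra1d (log2 fold change -0.0041, 95% confidence interval -0.30 to 0.30) and Adra2b (-0.30, adjusted p = 0.773). The Adra2b value was -0.46 without WT library 2, -0.50 without labelled-mutant library 2, -0.12 without labelled-mutant library 3, and -0.13 once the Y-linked sum was a covariate.

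Downstream of the receptors, most differences were small and none besides that of Kcnj3 passed the test. Log2 fold changes of the other adenylyl cyclase genes tested ran from -0.28 to 0.07. Of 6 other adenylyl cyclase genes, 3 were lower and 3 higher, and Adcy4 was at 24.3 ± 0.973 and 22.0 ± 1.31 CPM (SD, n = 4 each, log2 fold change -0.15, edgeR adjusted p = 0.354). Of 12 G protein subunit genes, 9 were lower and 3 higher (median log2 fold change -0.01). Gnas, which encodes the Gs alpha subunit, was at 1385 ± 36.3 CPM in WT against 1309 ± 31.4 CPM in the labelled mutant (SD, n = 4 each) without overlap, with a log2 fold change of -0.08 (adjusted p = 0.329). Gnai2, a Gi alpha subunit gene, was at 475 and 466 CPM (log2 fold change -0.03).

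Of 11 receptor kinase, arrestin and RGS genes, 10 were lower and 1 higher, with a median log2 fold change of -0.05. Their log2 fold changes ran from -0.45 to 0.05. Rgs5, which encodes a protein that speeds the shut-off of Gi and Gq, was at 85.2 ± 13.4 and 71.3 ± 3.02 CPM (SD, n = 4 each, log2 fold change -0.26, edgeR adjusted p = 0.282). Its log2 fold change was -0.16 without WT library 3 and -0.13 with the Y-linked covariate. Grk2, the other main receptor kinase gene of the heart and outside the naming rule, was at 71.2 and 70.4 CPM. Among 12 protein kinase A subunit, inhibitor and anchor genes, 5 were lower and 7 higher, with Prkar1a, a regulatory subunit gene, at 588 and 572 CPM and Akap6, an anchor gene, at 154 and 165 CPM (log2 fold change 0.10, adjusted p = 0.535).

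Of 8 phosphodiesterase genes and partners tested, 3 were lower and 5 higher. Pde8a, which encodes a cyclic AMP phosphodiesterase, was at 14.7 ± 1.06 CPM in WT against 12.5 ± 0.256 CPM in the labelled mutant (SD, n = 4 each) without overlap (log2 fold change -0.23, edgeR adjusted p = 0.207). Pde4dip, whose product binds a phosphodiesterase, had a log2 fold change of 0.08. Of the 9 receptor effector genes, 7 were lower and 2 higher. Pln, which encodes phospholamban, the calcium pump inhibitor that protein kinase A relieves, was at 1644 ± 26.5 and 1651 ± 72.5 CPM (SD, n = 4 each), and the 95% confidence interval of its log2 fold change was -0.06 to 0.08. Exons of Gnas, Pln, Colq and Adra1d share bases with other annotated genes, which makes their counts less certain.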

How the data were processed

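Polyadenylated RNA of 8 ventricle libraries (4 WT, 4 Nrg-1flox;Cdh5-CreERT2) was sequenced as directional single reads. The deposited values are expected counts, which the authors estimated for each Ensembl gene with RSEM (version 1.3.1 and cutadapt per the submitters' processing notes, GRCm38), in which reads that match several genes are divided, and 18.1% of values were not whole. The aligner and the strand setting are not given in the sources used here. Reads were divided between Adcy6 and Gm29331, which lie on opposite strands.

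Expected counts were rounded, filtered with filterByExpr by group (15388 genes kept) and scaled by TMM. Genotypes were compared with edgeR 4.0.16 (quasi-likelihood, two-sided, Benjamini-Hochberg over all tested genes, FDR 0.05) in R 4.3.3. Adjusted p-values set the difference between the genotypes against the spread between these libraries. SE came from the F statistic, with intervals at 95%. CPM are TMM-scaled, and exonic lengths, positions and overlaps came from GENCODE M21, which matched 53360 of 53465 identifiers. The fit was tested on simulated data. Library totals (16761763 to 24144272) set the counting precision.

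The members and all gene lists were chosen with earlier results of these data known. Named were the members, Nrg1, each pathway gene past the FDR, the most abundant per kilobase and the smallest p in each role list, nerve supply genes, and the 5 genes most like Ache (mean log2 CPM of at least 1). Marker genes, and genes said to be outside this rule, were named besides. Alternatives were RLE scaling, no filter, DESeq2 1.42.0, limma 3.58.1 (voom), a replicate block, the Y-linked sum as covariate, an FDR of 0.1 and leaving out each library.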

Additional observations from a re-analysis of the deposited data

Results flagged for a closer look

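In each genotype, the highest or lowest of the 4 libraries was compared with the others by Dixon's ratio at its 95% critical value. Of 58 groups of 4 values examined, 4 exceeded it, and chance alone would give about 2.9. Adra1b was at 8.57 CPM in WT library 4 and at 10.69 to 10.78 CPM in the other WT libraries. Chrnb1, a nicotinic receptor subunit gene, was at 5.75 CPM in WT library 4, where the others held 4.693 to 4.813 CPM, and labelled-mutant library 1 held 5.76 CPM of it beside 5.317 to 5.356 CPM. Adra2b, an alpha-2 adrenoceptor gene, was at 0.927 CPM in WT library 2 and at 1.564 to 1.625 CPM in the others. No cause was tested.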

How the results depend on the processing

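Ache was lower under all 14 alternatives, from -0.87 to -0.51 on the log2 scale, with an edgeR, DESeq2 or voom adjusted p below 0.05 in 6 of them. It moved most with the Y-linked sum as covariate (-0.51). The other 7 tested members, over all alternatives, moved by less than the spread between replicates, though without the filter Bche (-0.14) also passed the FDR (adjusted p = 0.0383, beside 0.0744 with it). Leaving out 1 library gave -0.87 to -0.63 for Ache, -0.15 to -0.12 for Bche, -0.19 to -0.07 for Chrm2, 0.24 to 0.36 for Adrb1, -0.12 to 0.03 for Adra1b, 0.03 to 0.09 for Adcy5, -0.02 to 0.03 for Adcy6 and -0.0041 to 0.04 for Grk5. Genes called across the table numbered 81, and became 190 at an FDR of 0.1, 338 without the filter, 198 with DESeq2 and 16 with the Y-linked covariate (12 shared with the 81), and 11 (without labelled-mutant library 3) to 142 (without labelled-mutant library 4) with 1 library left out. All counts in the 4 WT leave-outs and in labelled-mutant leave-outs 1 and 2 were also below the main count by more than 1.5 times (47, 14, 20, 33, 32 and 34). Pathway genes called numbered 1, and became 3 without the filter (Kcnj3, Ddc and Rgs5) and 0 with the Y-linked covariate (3 at an unadjusted p below 0.05). They were 0 to 1 with 1 library left out, 0 without any of 5 libraries, where 8 to 10 had an unadjusted p below 0.05. The cause of these changes was not tested.

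Values near 0 changed sign when 1 library was left out for 3 members (Adra1b, Adcy6 and Grk5, within the ranges above) and 3 pathway genes. Pln was at -0.0471 with the covariate, and at -0.0026, -0.0005035 and -0.015 without WT library 4, labelled-mutant library 1 and labelled-mutant library 2. Adra1d, at -0.059 to 0.05009 with 1 library left out, was at 0.0033 with voom, and at 0.05009, 0.0037, 0.033 and 0.0095 without WT libraries 2 and 3 and labelled-mutant libraries 1 and 4. Chrm3 was at 0.087 and 0.034 without WT library 2 and labelled-mutant library 2. Besides these 3, the pathway genes that moved by over 1.5 times with 1 library left out and are not given elsewhere were Akap6 (0.07 without labelled-mutant library 1), Chrnb1 (0.19 without WT library 4), Gnai2 (-0.01 without labelled-mutant library 3) and Pde4dip (0.05 without WT library 2). With the covariate, those that moved so were Adcy5 (0.11), Adra1b (-0.11), Grk5 (0.01), Adcy6 (0.0043), Adra1d (-0.13), Chrm3 (-0.15), Chrnb1 (0.18), Ddc (0.09), Prkar1a (-0.03) and Slc5a7 (0.26).

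Same-numbered libraries of the genotypes had correlations of deviations of 0.122, 0.0522, 0.0395 and 0.124, each above all pairs with different numbers (-0.0943 to 0.0232), a hint from the data, but 2 were below 0.1, so the numbers were treated as names. With the replicate block, 93 genes were called across the table, of which 59 were shared with the 81 of the main fit. Among pathway genes 1 was called, and Ache was at -0.73 (edgeR adjusted p = 0.0158). Depth limits Adra1a, Chat, Slc18a3, Th and Prima1, which had too few counts for a test.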
